A study of Homo sapiens with 3 samples.

Results

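The 4 genes of the MiT/TFE family, TFE3, TFEB, MITF and TFEC, were examined for peaks of the PRCC-TFE3 fusion protein in chromatin immunoprecipitation sequencing (ChIP-seq) data. A peak belonged to a gene when it lay inside the gene or within 10 kb of either end. The peaks of both replicates were merged into regions wherever they overlapped by at least 1 bp, and a region that held a peak from each replicate is called shared. The 4 genes held 37 of the 117702 regions of the genome, in intervals that together covered 471.653 kb.

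The chromatin came from HK-2, an immortalised cell line derived from human kidney proximal tubule, engineered to express HA-PRCC-TFE3 under the control of doxycycline. All samples, input DNA included, were from cells given doxycycline at 0.2 µg/mL for 24 h. Precipitation through the HA tag gave 2 ChIP libraries, replicates 1 and 2, which the study describes as biological replicates, and 1 library was input DNA. Uninduced cells were not analysed here, nor was a mock precipitation, and peaks can be set against input DNA alone. The tag is carried by the transgene product and not by the proteins made from the 4 endogenous genes. Whether those proteins were precipitated together with the fusion was not tested.

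MiT/TFE proteins are basic helix-loop-helix leucine zipper transcription factors that bind E-box DNA as dimers with themselves or with one another. They switch on genes for lysosomes and autophagy, and when nutrients are plentiful, phosphorylation downstream of mTORC1 keeps TFE3 and TFEB in the cytoplasm. Fusion of TFE3 to a partner such as PRCC, and in other tumours rearrangement of TFEB, drives renal cell carcinoma. MITF is the master regulator of melanocytes and is transcribed from several alternative starts, and TFEC is a family member with restricted expression that includes macrophages. The question here was where PRCC-TFE3 peaks lay at the genes that encode this family.

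Promoter windows of the 4 genes were taken from RefSeq on GRCh38.p14, each running from 250 bases before to 50 bases after an annotated start. There were 9 such windows, namely 1 for TFE3, 3 for TFEB, 3 for MITF and 2 for TFEC, numbered in the direction of transcription. The peaks were on hg19, the build named in the submitters' processing notes, and no position was carried from one build to the other. The 250 bases before the start are printed 5′ to 3′ on the coding strand, with every CANNTG, the general E-box, in capitals. The first windows of TFE3, TFEB and MITF are shown because these genes had shared regions near their start, and the windows TFEB 3 and TFEC 2 because they held 2 general E-boxes each. They lie at chrX:49043358-49043607 (-), chr6:41735609-41735858 (-), chr3:69739214-69739463 (+), chr6:41734402-41734651 (-) and chr7:115968310-115968559 (-).
TFE3 window 1: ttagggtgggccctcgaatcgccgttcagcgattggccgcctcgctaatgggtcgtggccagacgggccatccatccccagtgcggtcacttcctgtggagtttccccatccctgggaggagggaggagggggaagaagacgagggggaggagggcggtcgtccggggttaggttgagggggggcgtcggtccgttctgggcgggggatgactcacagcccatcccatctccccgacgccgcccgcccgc
TFEB window 1: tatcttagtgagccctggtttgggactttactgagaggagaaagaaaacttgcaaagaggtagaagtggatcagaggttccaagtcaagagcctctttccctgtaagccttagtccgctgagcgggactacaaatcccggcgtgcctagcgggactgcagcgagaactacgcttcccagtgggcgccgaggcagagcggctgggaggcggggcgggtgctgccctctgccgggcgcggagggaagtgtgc
MITF window 1: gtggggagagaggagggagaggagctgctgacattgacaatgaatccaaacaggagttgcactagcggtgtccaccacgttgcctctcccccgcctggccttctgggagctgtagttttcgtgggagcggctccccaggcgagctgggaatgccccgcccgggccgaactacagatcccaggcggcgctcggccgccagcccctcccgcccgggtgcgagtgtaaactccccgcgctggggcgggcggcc
TFEB window 3: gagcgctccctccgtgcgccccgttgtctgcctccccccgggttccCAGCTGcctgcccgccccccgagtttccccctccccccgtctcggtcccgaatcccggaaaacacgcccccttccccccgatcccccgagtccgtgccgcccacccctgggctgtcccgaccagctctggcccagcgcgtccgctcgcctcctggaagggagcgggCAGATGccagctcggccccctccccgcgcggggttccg
TFEC window 2: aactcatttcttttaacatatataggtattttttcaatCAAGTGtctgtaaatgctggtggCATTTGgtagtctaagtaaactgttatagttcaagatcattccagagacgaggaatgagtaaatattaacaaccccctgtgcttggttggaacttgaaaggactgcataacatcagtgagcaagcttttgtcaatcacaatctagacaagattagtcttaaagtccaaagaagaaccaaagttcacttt

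The printed windows of TFE3 and MITF and the first of TFEB held no CANNTG. In the third TFEB window the E-boxes began at -204 and -38 from the start, and in the second TFEC window at -212 and -189. Specific forms of the E-box were then searched on both strands of the whole windows. The palindrome CACGTG was in none of the 9 windows of these genes and in 7.26% of all 35116 RefSeq windows. The form known from melanocyte genes, CATGTG, was likewise in none of the 9 and in 11.1% of all. The longer forms were TCACGTGA, which contains the first, and TCATGTGA, which contains the second. They too were in none of the 9, and in 0.980% and 0.9995% of all windows. At least 1 of these forms was in 17.6% of all windows, so their absence from only 9 windows says little. The sequences under the peaks were not searched. CANNTG, which was added after the data were seen, was present in 4 of 9 windows and in 68.7% of all windows. It lay before the start in 3 of these 4, and after the start in the other. The guanine and cytosine content before the start was 68.4% for TFE3, 59.6% for the first TFEB window, 68.0% for the first MITF window and 35.2% for the second TFEC window, against a median of 58.0% over all windows. Of a list of 27 lysosomal and autophagy genes, 17 had a window (63.0%), too few for a comparison, which was therefore void.

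The libraries held 12235754 tags in replicate 1, 7418533 in replicate 2 and 21698159 in input DNA as recovered from the list of replicate 1. The narrowPeak lists, in the layout that MACS writes, held 109205 and 81300 peaks. A second, BED list for each ChIP library gave a tag count in a window of about 210 bp for 84248 and 63535 peaks. Fold enrichment is the value at the peak summit over the background that the caller took from input. Its median over all peaks was 7.49 in replicate 1 and 7.32 in replicate 2.

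PRCC-TFE3 peaks were found at all 4 genes, in both replicates. MITF held 20 regions, TFE3 8, TFEB 7 and TFEC 2. Both replicates had a peak in 27 of the 37 regions (73.0%, 95% Wilson interval 57.0 to 84.6), beside 59.8% of all regions of the genome. The genome value lay within the interval, which covers counting error only. A shared region lay within 1 kb of the start of TFE3, of TFEB and of MITF, and no region lay there at TFEC. Of 2 kb tiles of the genome, 5.21% held a shared region, but these tiles are stretches of any kind, and the starts of other genes were not placed. The map of peaks along the genes shows a tall peak at the TFE3 start and another about 31 kb inside MITF.

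**Figure D1:**
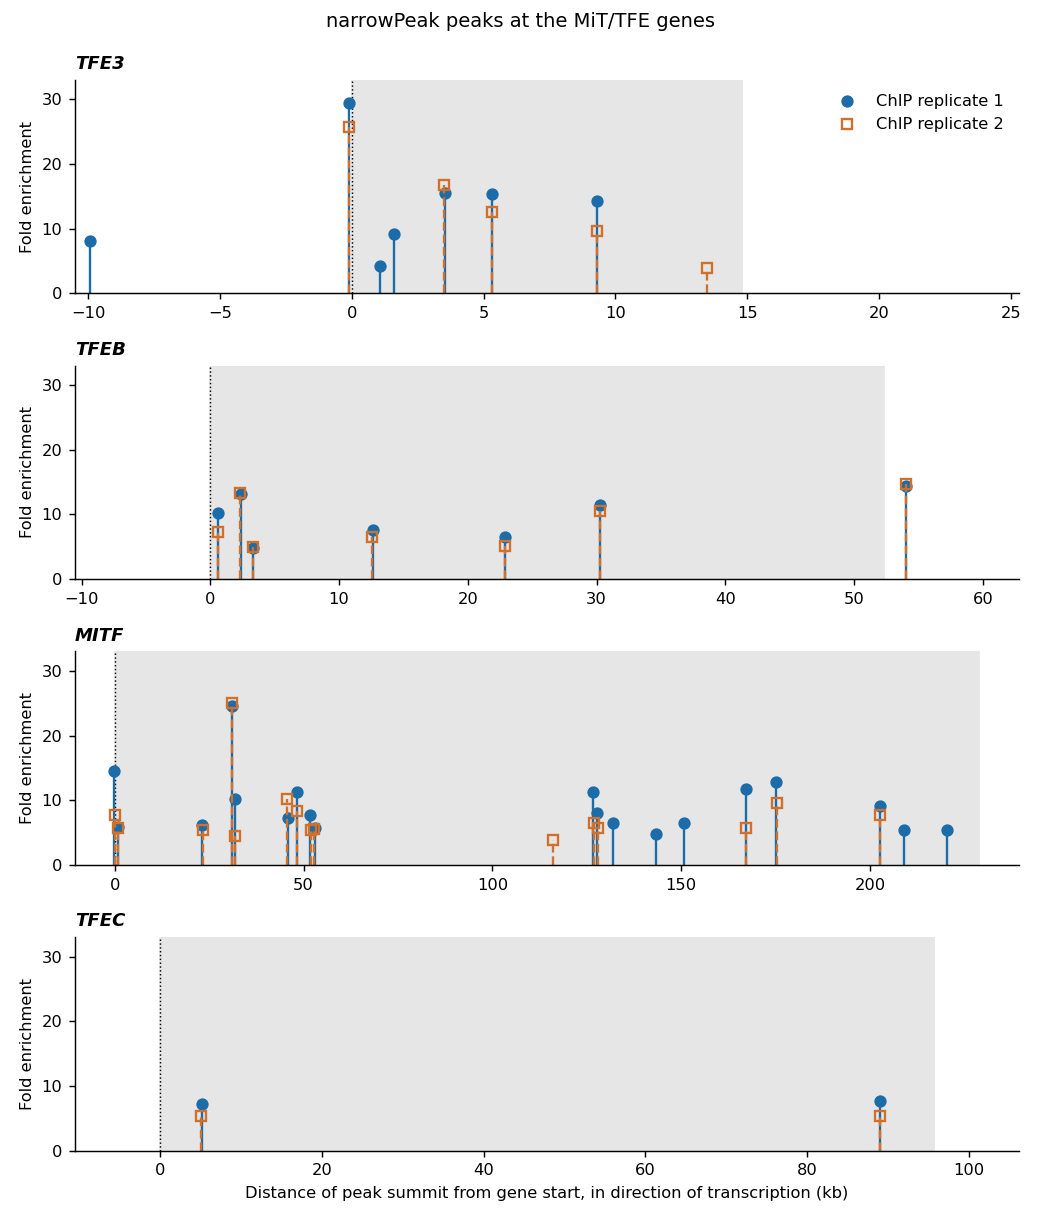
Fold enrichment (vertical axis, ratio to the caller's background) of each narrowPeak peak against the distance of its summit from the gene start in kb (horizontal axis), with gene bodies in grey and the start dotted. Filled circles are replicate 1 and open squares replicate 2. The peaks reached 29.4 and 25.7 at the TFE3 start and 24.6 and 25.03 inside MITF, while both TFEC regions stayed at or below 7.66.

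TFE3 (chrX:48886242-48901043, minus strand) is the gene whose 3′ part is carried by the fusion. Its start region, chrX:48900876-48901678, had a fold enrichment of 29.4 in replicate 1 and 25.7 in replicate 2. These were the highest folds of any peak at the 4 genes, in the top 1.27% and 1.87% of all peaks of their lists. The summits lay at -115 and -102 bp from the start, and the peaks were 803 and 737 bp wide, beside medians of 280 and 284 bp over all peaks. The BED windows at this position held 56 tags in replicate 1 and 40 in replicate 2, which is 45.8 (95% interval 34.6 to 59.4) and 53.9 (38.5 to 73.4) tags per 10000000. No input tag fell in them, which allows up to 3 tags at this depth.

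Inside TFE3 there were 3 further shared regions, at 3.52, 5.31 and 9.31 kb from the start. At chrX:48897329-48897772 the folds were 15.5 and 16.7, with 30 and 26 tags. At chrX:48895408-48895936 they were 15.4 and 12.6, with 40 and 23 tags. At chrX:48891590-48891904 they were 14.2 and 9.66, with 38 and 18 tags. All 3 regions thus lay above the median fold of their lists in both replicates, with the last of them lower in replicate 2 than in replicate 1.

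The other 4 TFE3 regions came from a single replicate. Peaks of replicate 1 alone lay at 1081 bp (fold 4.28) and 1594 bp (fold 9.10) inside the gene and at -9929 bp in the flank (fold 8.14). A peak of replicate 2 alone lay at 13485 bp (fold 3.98). The peak at 1081 bp, chrX:48899910-48900090, reached into the 1 kb start window, so 2 regions touched that window and 1 of them was shared. The peak at 1594 bp had no window in either BED list. Of the 11366 replicate 1 peaks with a fold within 10% of its own, 83.5% were overlapped in replicate 2.

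Because TFE3 coding sequence is also in the transgene, tags from the transgene and from exons of the endogenous gene cannot be told apart in peak lists. Input DNA would also carry transgene copies. Its tags at TFE3 came to 5 over the 5 windows of replicate 1, or 1 per window (95% Poisson interval 0.325 to 2.33), against a mean of 0.503 over all windows of the X chromosome. In the 4 windows of replicate 2, where the same input library was counted, they also came to 5, or 1.25 per window (0.406 to 2.92), against 0.499. The chromosome means lay inside both intervals, which are wide and rest on the same few tags of 1 input library. The intervals also pool unlike windows. Those at the start and in the flank held 0 input tags, and those at 3.52, 5.31 and 9.31 kb held 1, 1 and 3. Whether transgene copies added to the input tags inside the gene was not tested. The highest number in a window was 3, at 9.31 kb from the start.

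TFEB (chr6:41651716-41703997, minus strand), the main activator of lysosomal genes in many cells, had 7 regions, all of them shared. The region nearest the start, chr6:41703277-41703563, had its summits at 593 and 584 bp inside the gene, with folds of 10.3 and 7.31 and with 27 and 16 tags. The next, chr6:41701437-41702204, lay 2.34 kb inside and had folds of 13.1 and 13.4, with 26 and 19 tags. The folds of the second region were nearly equal in the replicates, while that of the first was above the median of the list in replicate 1 and at it in replicate 2. The later RefSeq starts of TFEB lay 0.548 and 1.207 kb downstream of the first RefSeq start on GRCh38.p14, and were not placed on the peaks. Whether that first RefSeq start matches the start from which the summits were measured was not tested, so the distances cannot be paired.

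Farther into TFEB, chr6:41673584-41674199 at 30.3 kb had folds of 11.4 and 10.53, with 30 and 19 tags. It also had 3 and 4 input tags in the windows of the replicates, and no window at the 4 genes held more than 4. The highest folds at TFEB, 14.4 and 14.8, were at chr6:41649837-41650263, with 29 and 23 tags. This region was 54.0 kb from the start and beyond the 3′ end of the gene. The remaining 3 regions, at 3.33, 12.6 and 22.9 kb, had folds between 4.84 and 7.66. Each TFEB region was therefore weaker than the TFE3 start in both replicates.

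MITF (chr3:69788586-70017488, plus strand), the longest of the genes, had 20 regions, of which 14 were shared, 5 came from replicate 1 alone and 1 from replicate 2 alone. All of them lay within the gene or across its start. The region over the start, chr3:69788327-69788717, had summits at -85 and -45 bp and folds of 14.4 in replicate 1 and 7.70 in replicate 2, with 26 and 11 tags. A second shared region of the start window, chr3:69789290-69789539, lay 850 and 818 bp inside the gene, with folds of 5.88 and 5.78 and with 10 and 8 tags. The replicates thus gave like folds for the weaker start region and less alike folds for the stronger one.

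The strongest MITF region was not at the start. It was chr3:69819286-69819977, 31.0 kb inside the gene, with folds of 24.6 and 25.03, in the top 3.24% and 2.15% of the lists. Its peaks were 668 and 625 bp wide, with summits 6 bp apart, 49 and 40 tags and no input tag. On the scale of tags per 10000000, this was 40.05 (29.6 to 52.9) in replicate 1 and 53.9 (38.5 to 73.4) in replicate 2. These intervals overlap those of the TFE3 start in the same replicate. A weaker shared region lay next to it, at 31.8 kb, with folds of 10.2 and 4.49.

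Among the other MITF regions, chr3:69963604-69963948 at 175.2 kb had folds of 12.8 and 9.63, with 23 and 13 tags. At 48.2 kb, chr3:69836490-69837017 had folds of 11.2 and 8.34, with 21 and 12 tags. The shared regions not named here had folds from 4.49 to 11.8. Regions fell on both sides of a stretch of 63.3 kb, from 52.9 to 116.2 kb, that held none. The later RefSeq starts of MITF lay 24.3 and 197.1 kb downstream of the first on GRCh38.p14, and the last of them is that of the melanocyte form. On hg19, the regions nearest to such distances were at 23.2 kb, with folds of 6.22 and 5.41, and at 202.6 kb, with folds of 9.09 and 7.70. These regions were 204 and 290 bp wide, so by distance neither reached the start it was nearest to. The MITF gene model was of nearly the same length on both builds, 228.869 kb on GRCh38.p14 and 228.903 kb here. Positions were not carried between the builds, so this rests on distances alone.

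TFEC (chr7:115575202-115670867, minus strand) had 2 regions, both shared and neither at the start. At chr7:115665527-115665847, 5.15 kb inside the gene, the folds were 7.22 and 5.41, with 19 and 8 tags. At chr7:115581730-115582064, 89.0 kb inside, they were 7.66 and 5.41, with 16 and 8 tags. Both regions were at or below the 51.5th percentile of replicate 1 and at the 22.6th percentile of replicate 2, and no input tag fell in their windows. The 83.8 kb between them held no region. RefSeq gives TFEC a longer gene model, 224.745 kb on GRCh38.p14 against 95.666 kb for the interval used here. Where the additional length lies relative to that interval was not tested, since the builds differ.

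To set the number of regions against the length of the genes, each interval was compared with tiles of its own length along the genome. TFE3 had 22.99 regions per 100 kb, TFEB 9.68, MITF 8.04 and TFEC 1.73, while tiles averaged 3.995 to 4.028. At least as many regions as at TFE3 were found in 2% of tiles, as at TFEB in 14.1%, as at MITF in 15.6% and as at TFEC in 63.4%. TFE3 was thus the densest of the 4 genes, and TFEC was below the tile average. On the X chromosome alone, tiles averaged 1.85 regions per 100 kb and 0.247% of them held at least as many as TFE3. The TFE3 density was 47.3 without flanks, and 14.4 by the BED lists or without replicate 1, where 5 regions were left. Tiles include gene-poor stretches and sequence gaps, so these shares do not compare the family with other genes.

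**Figure D2:**
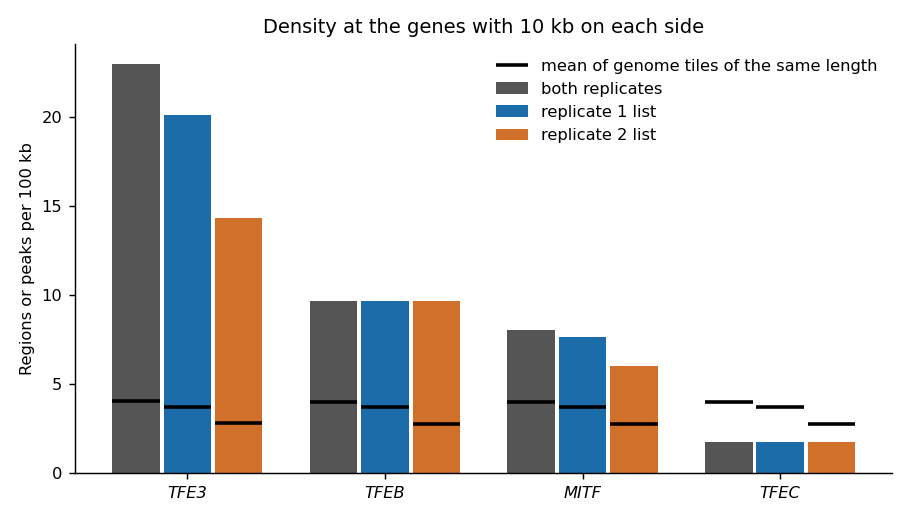
Density per 100 kb (vertical axis, from 0) at each gene with its 10 kb flanks, as bars for regions of both replicates and for the peaks of each replicate's list, with a black line at the mean of genome tiles of the same length. With both replicates TFE3 stood at 22.99, TFEB at 9.68 and MITF at 8.04, above their tile means, and TFEC at 1.73, below them.

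Strong and weak peaks were both present. Over the 35 member peaks of replicate 1 the median fold was 8.14, at the 55.5th percentile of the list, and over the 29 of replicate 2 it was 6.53, at the 41.7th percentile. The members thus sat near the middle of the lists, and 2 peaks of replicate 1 and 3 of replicate 2 were in the top 10%. Of these, the start of TFE3 and the region at 31.0 kb in MITF were in the top 10% of both lists, and the TFE3 region at 3.52 kb was so in replicate 2 alone. The order of the genes by their highest fold was TFE3, MITF, TFEB and TFEC in both replicates, although the TFE3 and MITF values of replicate 2, 25.7 and 25.03, were close to each other.

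Summits of the 27 shared regions were a median of 31 bp apart in the replicates, the same as over all peaks (31 bp), at most 182 bp apart, and within 100 bp in 24 of 27. The fold was higher in replicate 1 in 21 of 27 shared regions, beside 71.8% of all replicate 1 peaks that were overlapped in replicate 2. The single-replicate regions had folds of 3.85 to 9.10 with a median of 5.35, whereas the lower of both folds in shared regions had a median of 7.18. The ranges overlapped, since the weakest shared region had a lower fold of 4.49. Replicate 2 had fewer tags, and 8 of the 10 single-replicate regions were of replicate 1. The full lists leaned the same way, so this lean was not particular to the 4 genes. Genome-wide, replicate 1 had a partner in the other list for 65.3% of its calls, and replicate 2 for 88.5%. The part of depth in this lean was not tested.

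**Figure D3:**
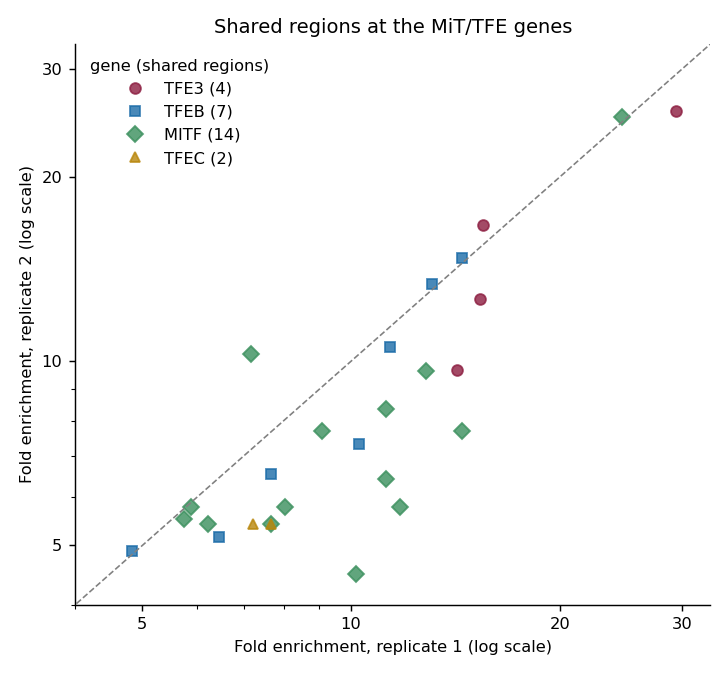
Fold enrichment in replicate 2 (vertical axis) against replicate 1 (horizontal axis) for shared regions, both on log axes, with 1 point per region, 1 colour and marker per gene and a dashed line of equal folds. Most points lie below the line (21 of 27), and the TFE3 start and the MITF region at 31.0 kb stand apart from the others, with folds of 24.6 or more.

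Tag counts were compared between the replicates in the BED windows that overlapped in both lists. The 25 member windows held 599 tags in replicate 1 and 386 in replicate 2, so replicate 2 had 39.2% of the tags (95% Wilson interval 36.2 to 42.3), beside 39.8% over all 55655 matched windows. By gene the share was 39.5% at TFE3, 40.8% at TFEB, 38.9% at MITF and 31.4% (20.3 to 45.0) at TFEC, and the interval of TFEC included the overall value. None of the 24 windows with at least 20 tags differed between replicates by a two-sided exact binomial test with Benjamini-Hochberg adjustment, and none had an unadjusted p under 0.05. The same test called 0 of 53266 windows of the genome (0%), with 1227 (2.30%) at an unadjusted p under 0.05. The lowest unadjusted exact p at the 4 genes was 0.142 (adjusted p = 1), at the MITF region 167.1 kb from the start, which had 23 tags in replicate 1 and 8 in replicate 2. With 24 windows of this depth, a small difference between replicates was not detectable. Windows listed in 1 replicate alone were left out beforehand, so the test could not show the largest differences.

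**Figure D4:**
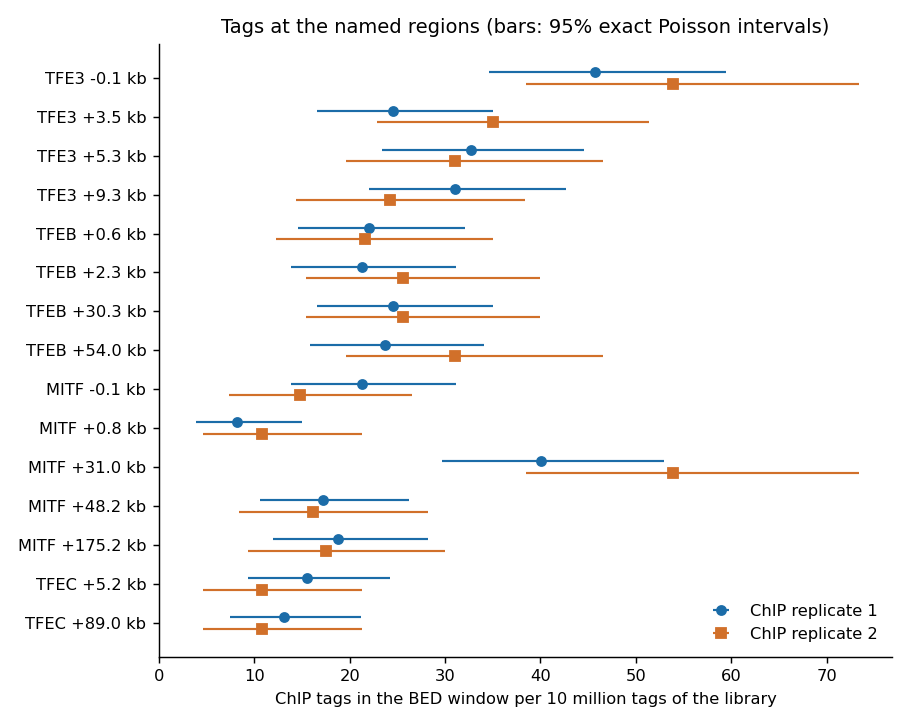
ChIP tags per 10000000 tags of the library (horizontal axis) with 95% exact Poisson intervals as bars at the BED windows of the named regions (rows, by gene and distance from its start), for replicates 1 and 2. The TFE3 start (45.8 and 53.9) and the MITF region at 31.0 kb (40.05 and 53.9) are the highest, and the intervals of the replicates overlap at every named region.

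Input DNA had no peak at the 4 genes, of 286 in its list. The member windows held 18 input tags over 31 windows of replicate 1, or 0.581 per window (95% Poisson interval 0.344 to 0.918), and 17 over 26 windows of replicate 2, or 0.654 (0.381 to 1.05). Over all windows the means were 0.874 and 0.876, inside both intervals. At MITF the input was lower, with 0.353 tags per window (0.130 to 0.768) in the windows of replicate 1 and 0.333 (0.0908 to 0.853) in those of replicate 2, against means of 0.963 and 0.959 over chromosome 3. A fold at a given number of ChIP tags can be larger where input is low, and the part of input in the MITF folds was not tested.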

How the data were processed

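ChIP-seq peak lists of 2 HA-PRCC-TFE3 libraries and 1 input DNA library were used. The authors called peaks for each sample separately. The methods name MACS in Strand NGS, with input as the comparison and a stringent p-value threshold. The deposited narrowPeak lists, in the layout of MACS, reach down to q-values near 0.05, and whether that threshold was applied to them is not stated. In these deposited lists each peak has a fold ratio, −log10 p and −log10 q values, a score and a summit. The lowest −log10 q was 1.31 in replicate 1 and 1.35 in replicate 2. The deposited BED lists give, per peak window, the tag count, the same as a signal per 10000000 tags, a scaled input signal, fold ratios with their p-values, a score and, unused here, a fraction of tags near the centre. Their header is displaced and columns were read by position. The program behind them and the aligner are not given in the sources used here. Coordinates are hg19, per the submitters' processing notes. No hg19 annotation was used, so exons, introns and UTRs were not assigned.

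Gene intervals were widened by 10 kb, and starts by 1 kb. Peaks of both replicates overlapping by at least 1 bp were merged into regions. Library totals were recovered from counts and scaled signal, and input tags from the count and the fold over input. Of the input values, 100% passed a check for whole numbers, with a tolerance of 0.1 times the count. Windows taken to hold 0 input tags were checked against a fixed value in place of a whole number. The tolerance widens with the count, so high counts pass whatever their value. Matched BED windows with at least 20 tags were compared by a two-sided exact binomial test against the overall share, adjusted by Benjamini-Hochberg over all windows at 0.05. The test was first checked on simulated data. Intervals are 95% and cover counting error only, since tags are not independent molecules. Python 3.11.15, numpy 2.4.6, pandas 2.3.3 and scipy 1.17.1 were used. Promoter sequences came from RefSeq, where all 4 genes matched by symbol.

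Named regions were those touching a start window and, per gene, the 4 shared regions with the highest lower fold, or all shared regions where there were at most 6. Other regions given with values were chosen after their values were seen. Members, lists and rules were chosen with earlier results of these data known. Alternatives were the BED lists, a q cutoff of 1e-05, no flanks, other overlap and start-window rules, tiles of the same chromosome, other tag minimums, each motif alone and leaving out each replicate.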

Additional observations from a re-analysis of the deposited data

How the results depend on the processing

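Of 58 alternative values, 53 moved by less than the limits set for them. The number of regions was 29 to 37 (37 as reported) and that of shared regions 24 to 27 (27). Shared start regions numbered 3 with a start window of 500 bp and 5 with 2 kb, against 4. The density over the 4 genes was 6.15 to 8.94 regions per 100 kb, against 7.84, and the mean over replicates of the median fold percentile 44.9 to 55.6, against 48.6. No matched window at the 4 genes was called by any of the alternatives of the tag test. Windows with an E-box rose from 0 to 4 of 9 with CANNTG, an alternative chosen after seeing the data, since that looser motif takes in the others. The TFE3 density moved to 47.3 without flanks and to 14.4 by the BED lists or without replicate 1, and its share of tiles to 0.247% on its own chromosome. Shared regions cannot be counted without a replicate. No paired analysis was possible because there was only 1 input library to set against 2 ChIP libraries. Depth limits the tag comparison: the median window held 17 tags in replicate 1 and 13 in replicate 2.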

Other observations

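Beyond the flanks, from 10 to 130 kb upstream of the start, TFE3 had 14 regions, of which 8 were shared, TFEB 9 with 5 shared, MITF 4 with 1 shared and TFEC 6 with 2 shared. The highest folds there were 17.1 and 15.4 (replicates 1 and 2) upstream of TFE3, 21.7 and 18.5 upstream of TFEB, 6.89 and 7.01 upstream of MITF, and 9.63 and 7.70 upstream of TFEC. Upstream of TFEB these folds were above those of any region within 10 kb of that gene, which reached 14.4 and 14.8. Upstream of TFEC they were above those at its 2 regions, 7.66 and 5.41. From 10 to 130 kb beyond the 3′ end, MITF had 1 region, found in replicate 2 alone with a fold of 4.49, and TFE3 had 9, of which 7 were shared, with folds up to 18.7 and 21.2. These regions were not assigned to any gene.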
